A study of Mus musculus with 10 samples.

Results

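Mitochondrial DNA is copied, transcribed and kept in use by proteins that are all encoded in the nucleus. The genes described here are 10 such nuclear genes, found in the deposited table by gene name: Polg, Polg2 and Twnk of the replication machinery, Polrmt, Tfam, Tfb2m, Tfb1m and Mterf3 of the transcription and ribosomal RNA machinery, and Lrpprc and Slirp, whose products keep mitochondrial mRNAs stable. All 10 were among the 54532 genes of the table and all 10 passed the filter on low counts, which left 16505 genes for testing. Their levels were set beside the mean level of the mRNAs that the mitochondrial genome itself encodes (MT mRNAs), of which 13 were listed and 12 passed the filter.

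The mitochondrial genome is a small circle, present in many copies in each cell, that encodes subunits of the respiratory chain together with the ribosomal and transfer RNAs needed to translate them. A dedicated RNA polymerase, guided to its promoters by TFAM and TFB2M, reads both strands into long precursors that are cut into single RNAs, and a complex of LRPPRC and SLIRP holds the mature mRNAs. Proximal tubule cells of the kidney are dense in mitochondria, so renal RNA is rich in transcripts of this genome.

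The study asked how dimethyl malonate (DMM), an inhibitor of succinate dehydrogenase, acts on kidneys with a blocked ureter. Male wild-type C57BL/6 mice underwent unilateral ureteral obstruction (UUO, double ligation of the left ureter) at 8 weeks of age. One group received 40 mg/kg DMM by intraperitoneal injection every other day and the control group received PBS, and kidney RNA was sequenced 14 days after surgery from 5 mice in each group. Every kidney was obstructed, no unobstructed kidney was included, and bulk RNA of the organ was measured, so fewer cells of a type and less RNA per cell cannot be told apart.

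Total counts ran from 15722527 to 19475833 per library. Levels are given as CPM, counts scaled to library size, after TMM scaling for library composition, and differences as log2 fold changes of DMM over PBS. A gene was called changed at an edgeR adjusted p under 0.05 over all tested genes together with a fold change above 1.5.

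Of the libraries, 3 stood apart. DMM replicate 1 (DMM1) correlated better with the PBS libraries over all tested genes (median r 0.985) than with its own group (0.959), and PBS replicate 3 (PBS3) was as close to DMM (0.977) as to PBS (0.977), a trait nearly shared by DMM2 (0.978 with DMM and 0.976 with PBS). DMM4 had the lowest correlations with both groups (0.915 and 0.914). In DMM4 the 1069 tested genes with a median mRNA length below 1000 nucleotides lay 0.83 log2 units under their mean over libraries and the 3636 genes above 4000 nucleotides lay 0.50 over it, whereas in the other 9 libraries the short genes lay 0.05 to 0.26 above the long ones. DMM4 also held 76254 counts of mitochondrial ribosomal RNA against 6819 to 12888 in the others. Log2 fold changes of the members are given over all 10 libraries and again over 8 (without PBS3 and DMM1), those of other genes over 8 mainly where they were called. The paper's methods give 5 replicates per group, but the deposited group means are weighted sums of the counts of 4 PBS and 4 DMM libraries, with a weight of 0 for PBS3 and DMM1. Some values are given without DMM4 as well.

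Over the 10 libraries none of the 10 genes was called in either direction, and neither was any other gene (0% of 16505 tested genes higher and 0% lower by edgeR, with a smallest adjusted p of 0.378). DESeq2 on the same libraries called 14 genes higher and 36 lower, again with no member. At an unadjusted p under 0.05, 2 members were higher, Twnk and Lrpprc, and none was lower, beside 4.4% of all tested genes higher and 6.49% lower. The median log2 fold change of the members was 0.048 against 0.019 over all tested genes. Of the 10 members, 8 had a value above 0, but only 4 when libraries were scaled by their size alone, where Tfam, Polrmt, Polg and Polg2 changed sign. That scaling moved the median of all tested genes too, from 0.019 to -0.064, and the members' median was then -0.030, so these sign changes go with the shift of all genes.

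Over the 8 libraries 1 member, Lrpprc, was called higher and none lower, where 2.73% of the 16550 tested genes were called higher and 3.56% lower. That set leaves out the highest PBS and the lowest DMM library for Lrpprc. The members' median log2 fold change was 0.090 and that of all tested genes 0.021. With DMM4 left out as well, 3 members (Lrpprc, Polrmt and Tfb2m) had an edgeR adjusted p under 0.05 and none of these reached the fold change minimum. In that set of 7 libraries 14.3% of 16828 genes passed the same adjusted p in the higher direction and 13.8% in the lower one, so the background was high there. For each of the 3 members the 7 libraries leave out the highest PBS library and the lowest DMM library. These p-values therefore add no evidence of their own.

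**Figure D1:**
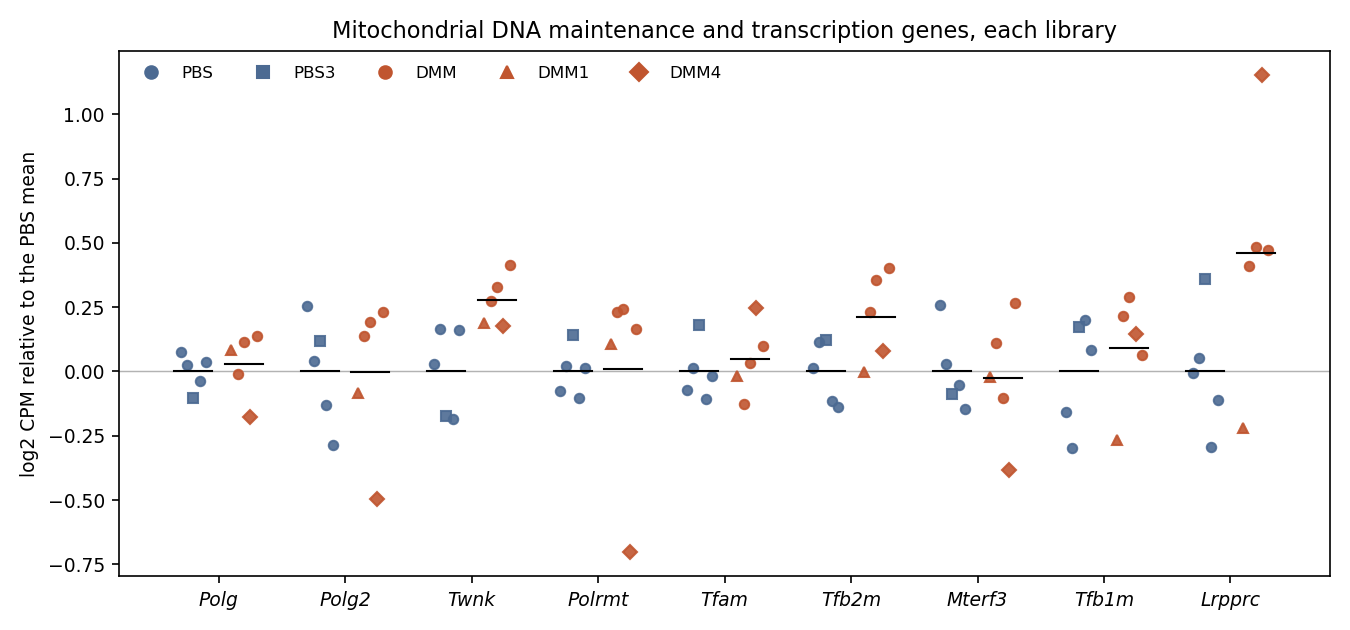
Level of 9 of the genes in each library, as log2 CPM relative to the PBS mean of that gene (vertical axis); blue marks PBS and red DMM libraries, black lines are group means, and PBS3, DMM1 and DMM4 have symbols of their own. Twnk is the gene whose groups do not overlap, and DMM4 is the highest library for Lrpprc and the lowest for Polrmt; Slirp, with 0 counts in DMM4, is not drawn.

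Of the products of the mitochondrial genome, the 12 tested MT mRNAs together averaged 8.22, 8.38, 9.30, 8.06 and 8.41 log2 CPM in PBS1 to PBS5 and 8.47, 9.29, 9.58, 10.12 and 9.65 in DMM1 to DMM5. PBS3 lay above DMM1 and DMM2, so the groups overlapped, and DMM1 lay just above the other PBS libraries. The group means were 8.47 ± 0.48 in PBS and 9.42 ± 0.61 in DMM (SD, n = 5 each), a difference of 0.95 log2 units (exact permutation test, two-sided, p = 0.0238). The p rose above 0.05 when PBS1, PBS2, PBS4 or PBS5 was left out (0.0556 each, differences of 0.89, 0.94, 0.85 and 0.94) and when DMM3, DMM4 or DMM5 was left out (exact permutation p = 0.0635 each, differences of 0.91, 0.77 and 0.89). Over the 8 libraries the difference was 1.39 and the exact permutation p was 0.0286, the smallest that 4 against 4 libraries allow. PBS3 was the 1 PBS library above any DMM library, so leaving it out separated the groups and fixed this p, which adds no evidence of its own.

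Single MT mRNAs had log2 fold changes between 0.58 (mt-Co1) and 1.37 (mt-Nd4l), with edgeR adjusted p-values of 0.378 to 0.526 over 10 libraries. Over 8 libraries all 12 were called higher, beside 2.73% of all tested genes, with log2 fold changes of 0.90 (mt-Co1) to 1.80 (mt-Nd6, the mRNA of the opposite strand). That set leaves out PBS3 and DMM1, the highest PBS and the lowest DMM library in MT mRNA mean. These calls therefore add no evidence of their own either. mt-Atp8, with at most 18 counts, did not pass the filter. Near copies of MT genes in the nuclear genome make some of these counts uncertain: 8 of the 13 MT mRNAs matched an annotated nuclear transcript at 95% identity or more over at least 50% of their length. The nuclear transcript Gm10925 held 1082 counts on average beside 1326 for mt-Atp6, and Gm28437 held 900 beside 1375 for mt-Co3. For the 4 tested MT mRNAs without such a copy (mt-Nd1, mt-Nd2, mt-Nd6 and mt-Cytb) the mean difference was 0.89 (exact permutation p = 0.0159, n = 5 each). These 4 were chosen after seeing the data. Of them mt-Nd2 was just under the length limit, with Gm13339 matching 49.1% of its length at up to 96.7% identity (0.2 counts on average).

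On this mean the libraries fell into separate sets, 5 between 8.06 and 8.47 (PBS1, PBS2, PBS4, PBS5 and DMM1) and 5 between 9.29 and 10.12 (PBS3 and DMM2 to DMM5), with no library in the gap of 0.82 between them. Correlations of the 10 members with the MT mRNA mean had been planned and computed over all libraries, where 1 member, Lrpprc, passed an adjusted permutation p of 0.05; without DMM4 the members that passed were 3 (Polrmt, Tfb2m and Lrpprc), and without DMM2 they were 2 (Tfam and Lrpprc). The sets were seen only after that. Ranked by this coefficient among 14507 protein-coding genes, Lrpprc lay above 99.0% of them over 10 libraries. Without DMM4, Lrpprc, Polrmt and Tfb2m lay above 95.5%, 91.7% and 90.8%. How much of a coefficient rests on the gap was not tested, and 5 libraries in each set are too few for a coefficient within it, so none is printed and the members are set beside this mean library by library.

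The replication genes showed small or no differences. Polg encodes the catalytic subunit of the only DNA polymerase that copies the mitochondrial genome, Polg2 its accessory subunit, and Twnk the helicase that opens the double strand ahead of it. Twnk had 21.7, 23.8, 18.8, 18.7 and 23.8 CPM in PBS1 to PBS5 and 24.2, 25.7, 26.7, 24.0 and 28.3 CPM in DMM1 to DMM5. Every DMM library lay above every PBS library, though the highest PBS and the lowest DMM values were close. Its groups were the only ones among the 10 genes without overlap over 10 libraries; across all tested genes the groups did not overlap for 0.794% in the higher and 1.16% in the lower direction. The log2 fold change was 0.27 ± 0.11 (SE), higher in 5 of 5 DMM libraries than the PBS mean, and it did not pass the edgeR threshold (unadjusted p = 0.0318, adjusted p = 0.425). Over 8 libraries it was 0.25 ± 0.13 (edgeR unadjusted p = 0.0749, adjusted p = 0.290). DMM1, which resembled PBS in the MT mRNA mean, lay only just above the PBS libraries for Twnk. It had 24.2 CPM (392 counts) beside 23.8 CPM (404 counts) in PBS2 and in PBS5, too close to place it on a side.

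Polg had 55.8 to 63.1 CPM in PBS and 53.0 to 65.9 in DMM, with DMM4 lowest and DMM5 highest, and a log2 fold change of 0.033 ± 0.090 (edgeR adjusted p = 0.892), -0.0048 over 8 libraries and 0.082 without DMM4. Polg2 had 4.76 to 6.99 CPM in PBS and 4.11 to 6.87 in DMM. Its log2 fold change was 0.0073 ± 0.18 (edgeR adjusted p = 0.990), or 0.061 over 8 libraries, and its lowest library was again DMM4. Of the 5 libraries with the highest Polg, 2 were among the 5 high in MT mRNA, and for Polg2 these were 4.

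Among the transcription genes, Polrmt encodes the mitochondrial RNA polymerase. It had 31.6, 33.8, 36.7, 31.0 and 33.6 CPM in PBS1 to PBS5 and 35.9, 39.1, 39.4, 20.4 and 37.4 CPM in DMM1 to DMM5. DMM4 was the lowest of all libraries, while the next 4 DMM libraries filled 4 of the 5 highest places with PBS3 among them. The 4 libraries next below DMM4 in MT mRNA mean held the 4 highest Polrmt values. The log2 fold change was 0.046 ± 0.17 over 10 libraries (edgeR adjusted p = 0.919), 0.067 ± 0.20 over 8, and 0.19 without DMM4 (unadjusted p = 0.0176, edgeR adjusted p = 0.259). Over the 7 libraries it was 0.25 ± 0.065 (edgeR adjusted p = 0.0205).

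Tfam encodes the HMG-box protein that packages mitochondrial DNA and bends its promoters for the polymerase. It had 36.3, 38.5, 43.2, 35.4 and 37.6 CPM in PBS1 to PBS5 and 37.6, 34.9, 39.0, 45.2 and 40.8 CPM in DMM1 to DMM5. DMM4 and PBS3 were the highest libraries and DMM2 the lowest, and the groups overlapped fully. The log2 fold change was 0.049 ± 0.10 (edgeR adjusted p = 0.851), 0.11 ± 0.11 over 8 libraries (adjusted p = 0.598), and -0.0035 without DMM4. Of the 5 libraries with the highest Tfam, 4 were among the 5 high in MT mRNA; DMM2, the remaining one of these, was the lowest in Tfam.

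Tfb2m encodes the factor that melts the promoter together with the polymerase. It had 25.9, 27.8, 27.9, 23.7 and 23.4 CPM in PBS1 to PBS5 and 25.6, 30.1, 32.9, 27.1 and 34.0 CPM in DMM1 to DMM5. DMM2, DMM3 and DMM5 were above all PBS libraries, and DMM1 and DMM4 lay within the PBS range. The log2 fold change was 0.22 ± 0.11 over 10 libraries (edgeR adjusted p = 0.504), 0.30 ± 0.12 over 8 (adjusted p = 0.192) and 0.36 ± 0.086 over 7 (adjusted p = 0.0141).

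Tfb1m, whose product dimethylates the small ribosomal RNA of the mitochondrion, was low at 5.12 to 7.29 CPM in PBS and 5.25 to 7.76 in DMM. Its log2 fold change was 0.092 ± 0.16 (edgeR adjusted p = 0.832), or 0.21 over 8 libraries (edgeR adjusted p = 0.521). Leaving out 1 library gave 0.033 to 0.17. Mterf3, known as a repressor of mitochondrial transcription that also acts in ribosome assembly, had 19.4 to 25.7 CPM in PBS and 16.4 to 25.8 in DMM. Its log2 fold change was -0.017 ± 0.14 (edgeR adjusted p = 0.966), or -0.038 over 8 libraries, with DMM4 lowest and DMM5 highest.

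Lrpprc showed the widest range among the members with substantial counts. Its product, a protein of pentatricopeptide repeats, binds mitochondrial mRNAs and keeps them polyadenylated and stable. Lrpprc had 78.4, 81.6, 100.97, 64.2 and 72.9 CPM in PBS1 to PBS5 and 67.6, 105, 110.2, 175 and 109 CPM in DMM1 to DMM5. The 5 libraries with the highest Lrpprc were the 5 with the highest MT mRNA mean, PBS3 included, and DMM4 led both measures. PBS4 was lowest in both, and DMM1 was second lowest for Lrpprc. The groups overlapped through DMM1, the 1 DMM library within the PBS range.

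The log2 fold change of Lrpprc was 0.51 ± 0.22 over 10 libraries, higher in 4 of 5 DMM libraries than the PBS mean, and did not pass (unadjusted p = 0.0403, edgeR adjusted p = 0.438). Over the 8 libraries it was 0.75 ± 0.18 (edgeR adjusted p = 0.0429), a call. That set leaves out PBS3, the highest PBS library for Lrpprc, and DMM1, the lowest DMM library. The groups then no longer overlapped, so this call adds no evidence of its own. Without DMM4 alone the log2 fold change was 0.30 (edgeR adjusted p = 0.357), and without DMM1 alone 0.65 (adjusted p = 0.0934). Over the 7 libraries it was 0.54 ± 0.082 (edgeR adjusted p = 0.00190), under the fold change minimum, so the call over 8 libraries needed the high value of DMM4. The median length of Lrpprc mRNAs is 4393 nucleotides, within the class above 4000 that was higher in DMM4 as a whole; how much of its value in DMM4 goes with length was not tested. Of the other members, Polg, with a median of 7837 nucleotides, was lowest in DMM4, and Tfam was highest there. The median length of Tfam mRNAs is 899 nucleotides, though an annotated transcript has 4167.

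Slirp encodes the small RNA-binding partner of LRPPRC. It was barely counted, with 24, 20, 32, 25 and 29 counts in PBS1 to PBS5 and 19, 18, 21, 0 and 20 counts in DMM1 to DMM5. The 4 DMM libraries with counts lay within 1.13 to 1.22 CPM, close to the lowest PBS library at 1.18, and the count of 0 in DMM4 allows up to 0.181 CPM (3 counts, counting error only). The log2 fold change was -0.62 ± 0.56 (edgeR adjusted p = 0.660), -0.63 over 8 libraries and -0.30 without DMM4 (edgeR adjusted p = 0.419). The longest Slirp transcript shares 93.0% of its length with a transcript of Snw1 on the opposite strand, which had 920 counts on average, so the Slirp count is uncertain.

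**Figure D2:**
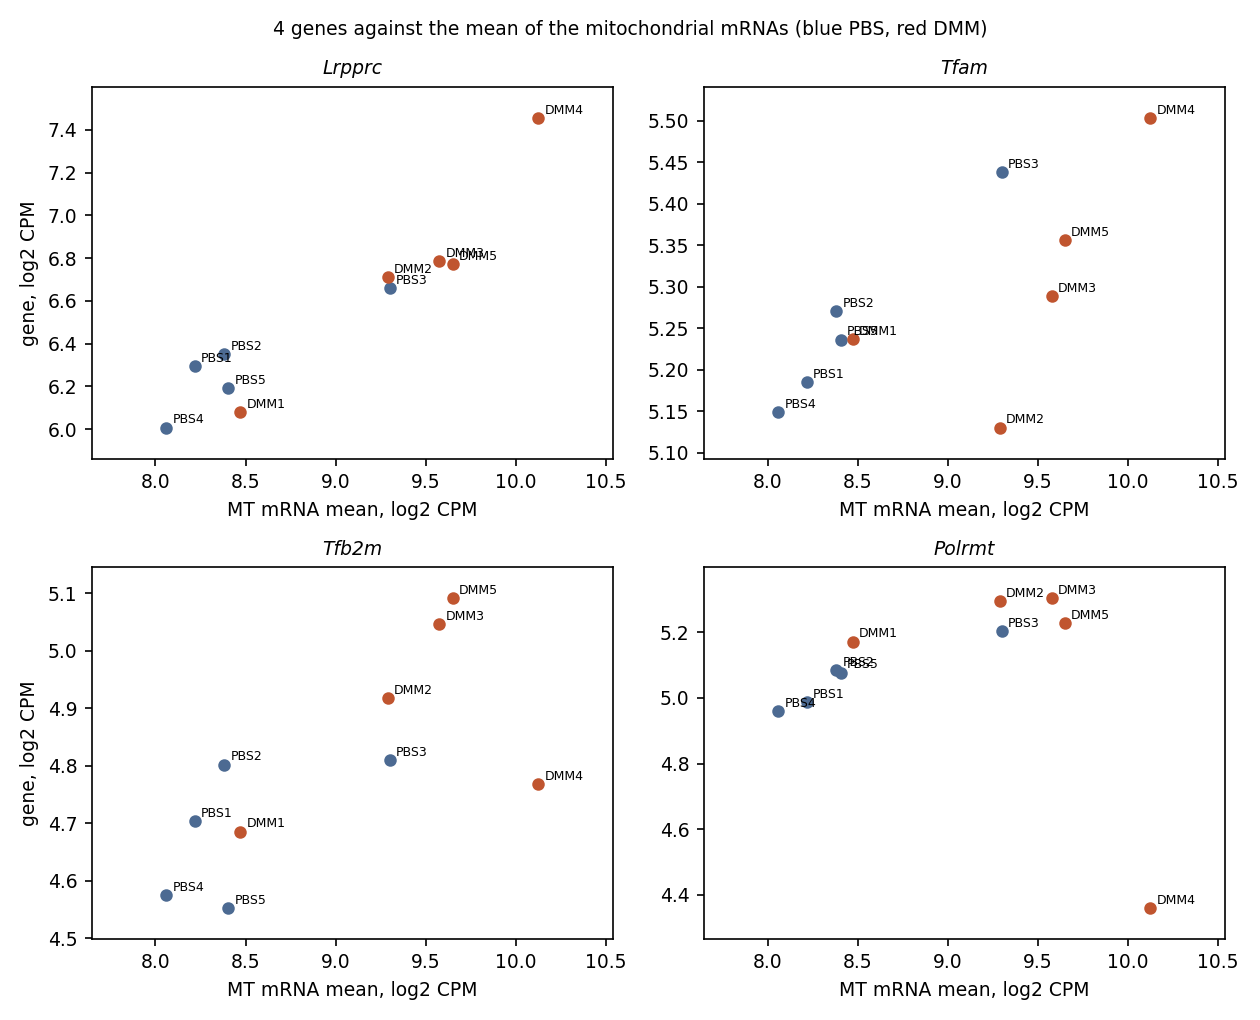
Log2 CPM of Lrpprc, Tfam, Tfb2m and Polrmt (vertical axes) against the mean log2 CPM of the 12 tested MT mRNAs (horizontal axes), 1 point per library, PBS in blue and DMM in red. The libraries leave a gap between 8.47 and 9.29 on the horizontal axis; DMM4, at 10.12, is highest for Lrpprc and Tfam and lowest for Polrmt.

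As deposited FPKM, which divides by the deposited gene length, the median PBS level was 9.17 for Tfb2m, 9.14 for Lrpprc, 8.43 for Tfam, 7.15 for Polrmt, 6.15 for Twnk and 5.63 for Polg. It was 4.2 for Mterf3, 1.85 for Tfb1m, 1.37 for Polg2 and 0.426 for Slirp. The deposited length can exceed that of the mRNA. For Tfam it is 4438 bases beside a median mRNA of 899 nucleotides, though an annotated transcript has 4167. This is therefore no order per mRNA. Neighbours in it had overlapping PBS ranges, except between Tfam and Polrmt, between Mterf3 and Tfb1m, and between Polg2 and Slirp. In DMM the FPKM of Lrpprc ranged from 7.92 to 20.4 and its median of 12.8 was the highest of the 10, above Tfb2m at 10.7.

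The members lie on 8 chromosomes (coordinates of build mm10). Tfam (ENSMUSG00000003923) is at chr10:71225464-71238280 and Polrmt (ENSMUSG00000020329) at chr10:79736123-79746581, both on the minus strand. Lrpprc (ENSMUSG00000024120) is at chr17:84705247-84790789 and Tfb1m (ENSMUSG00000036983) at chr17:3519256-3557781. Twnk (ENSMUSG00000025209) is at chr19:45006558-45012762, Tfb2m (ENSMUSG00000026492) at chr1:179528055-179546267 and Polg (ENSMUSG00000039176) at chr7:79446231-79466362. Polg2 (ENSMUSG00000020718) is at chr11:106768253-106779537, Slirp (ENSMUSG00000021040) at chr12:87443896-87452206 and Mterf3 (ENSMUSG00000021519) at chr13:66906968-66933088.

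No annotated gene overlaps Tfam, Polrmt, Twnk or Lrpprc. The other 6 overlap a gene on the opposite strand: Polg with Fanci, Polg2 with Milr1, Tfb1m with Tiam2 and Cldn20, Tfb2m with Gm15480, Slirp with Alkbh1 and Snw1, and Mterf3 with Ptdss1 and Gm10767. Whether reads were counted by strand is not given in the sources used here, so counts of these 6 genes may hold reads of their partners. For Tfb2m, the transcript Gm1818 matched 48.5% of its length at up to 99.3% identity and had 83.4 counts on average beside 478 for Tfb2m.

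Other genes of the same machinery were summarised by list. Of 15 further genes of mitochondrial DNA replication and repair, none was called over 10 or 8 libraries, and 1 was called higher over the 7. Their median log2 fold change over 10 libraries was -0.081 beside 0.019 for all tested genes. Over the 7 libraries it was 0.079 beside -0.011. Relative to PBS the mean of the list was -0.30 in DMM4, the lowest library, and -0.060 in DMM5, the next. The gene with the smallest p in the lower direction was Dna2, a nuclease and helicase, at 13.4 ± 2.19 CPM in PBS and 10.7 ± 1.31 in DMM (log2 fold change -0.33 ± 0.15, edgeR adjusted p = 0.454). In the higher direction it was Top1mt, the mitochondrial type I topoisomerase, with 0.26 ± 0.15 (edgeR adjusted p = 0.531). Of 6 other mitochondrial transcription factors none was called either, with Mrpl12 at 0.20 ± 0.21 and Mterf1a at -0.23 ± 0.33. Without DMM4 these were 0.35 (edgeR unadjusted p = 0.0467, adjusted p = 0.290) and 0.011. For Mrpl12, leaving out 1 library gave 0.098 to 0.35.

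The 13 genes of mitochondrial nucleotide supply had a median log2 fold change of 0.13 and no call over 10 libraries. Samhd1, which breaks down deoxynucleotides and is induced by interferon, had 286 ± 29.4 CPM in PBS and 139 ± 83.7 in DMM. DMM1 had 287 CPM, as much as the PBS libraries. Its log2 fold change was -1.04 ± 0.31 (edgeR adjusted p = 0.378), and -1.53 ± 0.14 over 8 libraries (edgeR adjusted p = 0.000448). Cmpk2, a mitochondrial nucleotide kinase that interferon also induces, had 174 ± 28.4 CPM in PBS and 59.0 ± 67.5 in DMM, with 179 in DMM1. Its log2 fold change was -1.56 ± 0.54 (edgeR adjusted p = 0.387), and -2.65 ± 0.15 over 8 libraries (edgeR adjusted p = 7.45e-05). Leaving out DMM1 alone also gave calls for Samhd1 (-1.49, edgeR adjusted p = 0.000213) and Cmpk2 (-2.59, adjusted p = 3.42e-05). DMM1 was the 1 DMM library at the PBS level for both genes. Calls made without it, alone or over 8 libraries, therefore add no evidence of their own. Over 8 libraries Samhd1 and Cmpk2 were the only calls among the 13, both lower, beside 3.56% of all tested genes called lower and 2.73% higher. Ak3, an adenylate kinase of the matrix, had 0.60 ± 0.16 there (edgeR adjusted p = 0.0556), against 0.39 over 10 libraries and 0.22 without DMM4.

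Of 31 genes of mitochondrial RNA processing and decay none was called over 10 libraries, with a median log2 fold change of 0.054. Pnpt1, the polynucleotide phosphorylase that degrades mitochondrial RNA, had 46.1 ± 5.20 CPM in PBS and 33.9 ± 7.61 in DMM. Its log2 fold change was -0.44 ± 0.15 (edgeR adjusted p = 0.385) and -0.62 ± 0.12 over 8 libraries, where it was the 1 call of the list (edgeR adjusted p = 0.0208), beside 3.56% of all tested genes called lower. Without DMM1 alone it was called too (-0.59, edgeR adjusted p = 0.0213). DMM1 had 47.0 CPM, above the PBS mean, so calls made without that library add no evidence of their own. Supv3l1, the helicase that works with this phosphorylase, went the other way, with 19.1 ± 0.163 CPM in PBS and 23.4 ± 3.34 in DMM (log2 fold change 0.29 ± 0.11, edgeR adjusted p = 0.409).

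Of nuclear regulators known to act on the promoters of these genes, Nrf1 had a log2 fold change of -0.0054 ± 0.13, Gabpa 0.15 ± 0.11, Esrra 0.036 ± 0.19 and Yy1 0.056 ± 0.10 (edgeR adjusted p = 0.989, 0.605, 0.947 and 0.837). Over 8 libraries 2 of the 15 listed regulators were called higher, beside 2.73% of all tested genes, both without a call over 10. Ppargc1a, the coactivator PGC-1alpha, had 50.2, 36.3, 63.5, 30.6 and 41.0 CPM in PBS1 to PBS5 and 40.9, 58.1, 73.3, 135 and 70.5 in DMM1 to DMM5. The same 5 libraries were highest for Ppargc1a, Lrpprc and the MT mRNA mean. Its log2 fold change was 0.77 ± 0.30 (edgeR adjusted p = 0.409), 1.09 ± 0.27 over 8 libraries (adjusted p = 0.0450), and 0.45 without DMM4. Ppara, a nuclear receptor of fatty acid oxidation, had 1.17 ± 0.41 (edgeR adjusted p = 0.387) and 1.73 ± 0.29 over 8 libraries (adjusted p = 0.0109). For Ppargc1a and Ppara the 8 libraries leave out the highest PBS library, PBS3, and the lowest DMM library, DMM1. These 2 calls therefore add no evidence of their own. Pparg had the smallest p in the lower direction, with -0.39 ± 0.20 (edgeR adjusted p = 0.508).

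The 72 nuclear genes of the respiratory chain, partners of the proteins made from MT mRNAs, had a median log2 fold change of 0.12 over 10 libraries with no call, and 0.28 over 8 libraries with 1 call, Ndufs1 (0.66 ± 0.12, edgeR adjusted p = 0.0162), where 2.73% of all tested genes were called higher. Over 10 libraries Ndufs1 had 0.35 ± 0.21 (edgeR adjusted p = 0.536), Ndufa9 0.29 ± 0.14 and Ndufa12 -0.36 ± 0.39. Over 8 libraries Ndufa9 had 0.47 and Ndufa12 0.0063. For Ndufs1 that set leaves out PBS3 (143 CPM) and DMM1 (80.1 CPM), beside group means of 96.5 in PBS and 123 in DMM. Its call therefore adds no evidence of its own. Leaving out 1 library gave -0.54 to -0.050 for Ndufa12. The mean of the list relative to PBS was -0.03, -0.02, 0.34, -0.18 and -0.11 in PBS1 to PBS5 and -0.14, 0.28, 0.43, -0.87 and 0.52 in DMM1 to DMM5. DMM4, highest in MT mRNAs and Lrpprc, was the lowest library for the nuclear partners, as it was for Polrmt. Short mRNAs as a class had a median deviation of -0.83 in DMM4, and whether the value of the list goes with mRNA length was not tested. Over the 7 libraries 20 of the 72 were called higher and none lower, beside 1129 higher and 1281 lower among all 16828 tested genes. That set was chosen after seeing the data. On the list mean it leaves out the highest PBS library (PBS3) and the lowest DMM libraries (DMM4 and DMM1). These calls therefore add no evidence of their own.

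Marker genes of renal cell types also differed between libraries. All 14 proximal tubule markers were tested. Their summed level was 4710.5, 4685, 12228.5, 1789.7 and 3500.5 CPM in PBS1 to PBS5 and 3483, 9692, 8412, 6522 and 12330.3 CPM in DMM1 to DMM5, with Kap the most abundant and no marker at 0. PBS3 and the DMM libraries other than DMM1 were high and PBS4 was low. The median log2 fold change of the markers was 0.72 over 10 libraries with no call, and 1.64 over 8 libraries with 4 of 14 called higher, beside 2.73% of all tested genes. Over the 7 libraries 13 of the 14 were called higher (median 1.63), beside 1129 of all 16828 tested genes. Over 8 libraries 4 of 5 tested markers of the thick ascending limb and distal tubule were called higher (median 0.95) and 3 of 8 of the collecting duct (0.74), but none of 5 podocyte (-0.070), 5 injured tubule (-0.0047) and 5 endothelial markers (0.032). Of 10 leukocyte markers, led by Csf1r, none was called over 10 libraries and 2 were called lower over 8, beside 3.56% of all tested genes, with medians of -0.67 and -0.88. The fibroblast markers (6 genes, led by Col3a1) had medians of -0.55 and -1.04, with 2 called lower over 8 libraries beside the same 3.56%. Over the 7 libraries 4 of 10 leukocyte, 4 of 6 fibroblast and 1 of 5 injured tubule markers were called lower, beside 1281 of 16828 tested genes. In that set 5 of 5 thick ascending limb and distal tubule markers and 4 of 8 of the collecting duct were called higher. PBS3 was the PBS library nearest DMM, and DMM1 the DMM library nearest PBS, in 3 lists. These were the proximal tubule, the thick ascending limb and distal tubule, and the fibroblast markers. Both libraries are left out of the 8 and the 7, so the calls of these lists there add no evidence of their own. The part of cell composition in the values of Lrpprc, Tfb2m and the MT mRNAs was not tested.

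Of 30 relations computed across libraries (10 members with 3 measures), coefficients are given for the proximal tubule marker mean alone. For the tubule and respiratory chain means, no share of all tested genes that pass is given beside the members. On the mean of the nuclear respiratory chain DMM4 lay alone at the bottom, and the members that passed an adjusted permutation p of 0.05 there were Polrmt and Polg2 with DMM4, and Tfb2m and Lrpprc without it. Without DMM4 Polrmt was near that limit (exact permutation test, adjusted p = 0.0537). The 5 libraries low in MT mRNA were also the 5 lowest in tubule markers, without a wide gap, so these relations share that division. Without DMM4 they were the 5 lowest on the respiratory chain mean too. The r of that mean with the tubule mean was then 0.94, against 0.56 over 10 libraries. Without DMM4, passes on the 3 measures are therefore not separate relations. Tfb2m, Lrpprc and Polrmt were picked for description after their coefficients were seen. Tfb2m had r = 0.86 (permutation p = 0.00126, adjusted p = 0.00945) and rho = 0.92 (permutation p = 0.000640, adjusted p = 0.0192) over 10 libraries. Without DMM5 and PBS4, the libraries farthest from the median, r was 0.80, and of deviations from the group means it was 0.84. With libraries scaled by size alone r was 0.74 and its adjusted permutation p 0.0938. For Lrpprc r was 0.68 (permutation p = 0.0303, adjusted p = 0.130) and rho 0.82 (permutation p = 0.00595, adjusted p = 0.0357), with r = 0.59 without DMM5 and PBS4.

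Leaving out 1 library brought 3 further members past an adjusted permutation p of 0.05, and other coefficients moved without passing. With no share of all tested genes to set beside it, this count is a description of the members alone. Without DMM4, r with the tubule mean was 0.96 for Lrpprc (exact permutation p = 0.000102, adjusted p = 0.00153) and 0.80 for Polrmt (exact permutation p = 0.0121, adjusted p = 0.0452), against 0.30 for Polrmt over 10 libraries (permutation p = 0.408, adjusted p = 0.611; rho 0.64, permutation p = 0.0560). Tfam had r = 0.49 over 10 libraries and Twnk 0.49, with adjusted permutation p-values of 0.293 for both, and without DMM5 and PBS4 the values were 0.29 and -0.13. Twnk passed without PBS3, with r = 0.89 (exact permutation p = 0.00135, adjusted p = 0.0119), and over 8 libraries, with r = 0.94 (exact permutation p = 0.000719, adjusted p = 0.00967). The remaining 5 members had r between -0.050 and 0.49.

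As a description of likeness over the 10 libraries, the nuclear protein-coding genes closest to Tfam by Pearson's r of log2 CPM were Rnaset2b (0.92), Cep57l1 (0.91) and Gm2a (0.91), or 0.86, 0.90 and 0.83 without DMM4. By the same measure the 3 closest to the MT mRNA mean were Rtn3, Prepl and Ddah1.

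Promoters of the members were read from RefSeq (build GRCm38.p6, 250 bases before to 50 after the start of each gene), which held 9 of the 10 genes, Twnk with 2 starts. Their median GC content was 61.0% with 22.5 CpG sites in 300 bases, beside 52.7% and 7 over all 32851 promoters. Letters bound by 3 factor families that are known to act on such genes were searched on both strands: GCGCATGC (NRF1), CCGGAAG (GABPA and other ETS factors) and AAGATGGC (YY1). The ETS letters were in the promoters of 6 of 9 members (Tfam, Polrmt, Polg, Polg2, Twnk and Slirp), beside 9.93% of 27025 genes. The NRF1 letters were in 2 of 9 (Polrmt and Tfb2m), beside 3.05% of genes, and the YY1 letters in 1 of 9 (Slirp), beside 3.19%. No match overlapped another.

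The promoters of the 4 genes whose levels are drawn against the MT mRNAs are shown, 5′ to 3′ on the gene's strand, to let the ones with and without these letters be compared. All are on the minus strand: Tfam at chr10:71237995-71238294, Polrmt at chr10:79746532-79746831, Tfb2m at chr1:179546227-179546526 and Lrpprc at chr17:84790737-84791036. Starts are those of RefSeq, and that of Tfam lies inside the deposited span of the gene. Capitals mark the matches: the ETS letters 47 bases before the start of Tfam, the NRF1 letters 133 bases and, on the other strand, the ETS letters 43 bases before that of Polrmt, and the NRF1 letters on the other strand from base 14 of Tfb2m. Lrpprc, the member with the widest range among the counted ones, held none of the 3 sets of letters in this window.
Tfam: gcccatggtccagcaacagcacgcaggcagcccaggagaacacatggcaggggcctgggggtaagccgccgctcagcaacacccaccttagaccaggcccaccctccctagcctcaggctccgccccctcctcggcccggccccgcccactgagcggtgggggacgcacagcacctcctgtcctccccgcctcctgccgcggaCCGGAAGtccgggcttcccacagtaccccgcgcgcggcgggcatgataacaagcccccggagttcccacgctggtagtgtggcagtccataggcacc
Polrmt: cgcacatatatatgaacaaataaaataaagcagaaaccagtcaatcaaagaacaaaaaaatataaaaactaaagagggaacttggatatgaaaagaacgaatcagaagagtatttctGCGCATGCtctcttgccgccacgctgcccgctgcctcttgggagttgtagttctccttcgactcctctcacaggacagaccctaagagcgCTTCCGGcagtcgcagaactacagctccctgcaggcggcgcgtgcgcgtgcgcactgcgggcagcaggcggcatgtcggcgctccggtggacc
Tfb2m: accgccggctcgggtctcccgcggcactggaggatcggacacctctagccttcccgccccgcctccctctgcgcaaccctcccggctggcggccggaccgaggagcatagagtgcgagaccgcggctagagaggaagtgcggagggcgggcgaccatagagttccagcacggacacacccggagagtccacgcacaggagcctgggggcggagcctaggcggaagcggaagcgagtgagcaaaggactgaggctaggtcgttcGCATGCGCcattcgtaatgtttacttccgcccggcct
Lrpprc: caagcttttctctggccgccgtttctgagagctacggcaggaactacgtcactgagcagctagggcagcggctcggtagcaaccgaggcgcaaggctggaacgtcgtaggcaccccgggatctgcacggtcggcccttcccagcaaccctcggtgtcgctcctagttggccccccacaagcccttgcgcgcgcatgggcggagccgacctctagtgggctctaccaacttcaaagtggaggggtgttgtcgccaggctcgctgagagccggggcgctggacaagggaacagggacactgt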

How the data were processed

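Whole-kidney RNA of 10 mice with unilateral ureteral obstruction, 5 given PBS and 5 given DMM, was sequenced as 1 library per mouse. The authors deposited a table of read counts and FPKM (fragments scaled to the deposited gene length and library size) for 54532 genes. Per the submitters' processing notes reads were aligned with HISAT2 2.0.5, and per the paper's methods to build mm10; the counting tool, annotation and use of strand are not given in the sources used here. The deposited comparison columns (group means, fold change and p) were not used, except that a linear fit of each mean to the counts showed which libraries it holds (4 PBS and 4 DMM; the paper's methods give 5). Total counts were 15722527 to 19475833 per library, at which a count of 3, the limit for a gene counted at 0, is 0.159 to 0.189 CPM.

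Counts were filtered with filterByExpr, scaled by TMM and tested with the quasi-likelihood F test of edgeR 4.0.16 in R 4.3.3, after the procedure had been tested on simulated data. A call needed a Benjamini-Hochberg adjusted p under 0.05 over all tested genes and a fold change above 1.5. Log2 CPM used a prior count of 2. DESeq2 1.42.0 was the other test. The mean log2 CPM of the tested MT mRNAs was compared by exact permutation of the group labels, and p-values are for separate mice. Replicate numbers were not used as pairs, since libraries of the same number were not alike (r between -0.22 and 0.34 for deviations from the group means).

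The members and the lists were chosen with earlier results of these data known. Named genes are all 10 members, of each pathway list the gene with the smallest p in each direction and every call over 10 or 8 libraries, and the 3 genes most alike to Tfam and to the MT mRNA mean; Nrf1, Gabpa, Esrra and Yy1 were added because their binding letters or role concern the members. Lists of cell type markers are given as counts and medians, with the most abundant gene of 3 lists named. Alternatives covered the 8 libraries of the deposited group means, known from earlier results of these data, DESeq2, 3 other scalings, 2 other filters, removal of each library in turn, a block for replicate number, 2 other thresholds and, for the MT mRNA mean, other prior counts and gene sets.

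Chosen after seeing the data were the set of 7 libraries (without PBS3, DMM1 and DMM4), the MT mRNAs without a nuclear copy, and the alternatives for 3 relations with proximal tubule markers. Pearson and Spearman correlations of the 10 members with 3 per-library means were planned, with permutation p-values adjusted over the 30 relations. Coefficients with the MT mRNA mean were computed in all these settings and then left unprinted, because the libraries were seen afterwards to form separate sets on that mean; no rule for such sets had been written beforehand.

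Near copies were searched with BLAST 2.17.0 among GENCODE vM21 transcripts (95% identity or more). Promoters are from RefSeq, build GRCm38.p6, which lacked that of Mterf3.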

Additional observations from a re-analysis of the deposited data

Results flagged for a closer look

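In 9 of 60 groups of 5 libraries tested, 1 library lay far from the others of its group, with a gap to the nearest library that exceeded 0.71 of the whole range. Chance alone gives this in about 1 in 20 groups. DMM4 was that library 4 times. For Polrmt its 4.36 log2 CPM lay under 5.17 to 5.30 in the other DMM libraries (gap over range 0.860), for Slirp its -3.11, a count of 0, under 0.32 to 0.41 (0.974), and for Mterf1a its -0.15 under 1.48 to 1.96 (0.772). The share of counts on mitochondrial ribosomal RNA was higher in DMM4 than in the other DMM libraries (76254 counts, gap over range 0.924). PBS3 was that library 3 times, each time on the side of the DMM libraries: for the MT mRNA mean (9.30 against 8.06 to 8.41, 0.721), for the share of counts on MT mRNAs (637577 counts, 0.790) and for Ndufa9 (6.65 against 6.12 to 6.26, 0.728). DMM1 was that library for Samhd1 (8.16 against 6.42 to 6.89, 0.733) and Cmpk2 (7.49 against 4.67 to 5.10, 0.848), each time with a level like that of the PBS libraries. The cause of these values was not tested.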

How the results depend on the processing

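With the 8 libraries of the deposited group means, edgeR called 452 of 16550 tested genes higher (2.73%) and 590 lower (3.56%). Among them were 1 member (Lrpprc) and 6 of 152 pathway list genes. The 10 libraries gave 0 (727 higher and 1071 lower at an unadjusted p under 0.05). DESeq2 on 10 libraries called 14 and 36. Unadjusted p with the fold change minimum passed 315 and 678 of 16505 tested genes, with 4 of the 152 list genes. The 7 libraries, chosen after seeing the data, gave 1129 and 1281 of 16828 tested genes, with 27 of the 152 list genes. Leaving out 1 library gave 0 to 50 genes higher, 0 to 436 lower and 0 to 3 list genes, all nonzero counts coming without DMM1. The MT mRNA mean difference was 0.77 to 1.19 when 1 library was left out; with the replicate block it was 0.95 with an exact sign-flip p of 0.0625, the smallest possible. Members whose correlation with the MT mRNA mean passed an adjusted permutation p of 0.05 numbered 1 over 10 libraries. They were 1 to 3 when 1 library was left out and 4 over the 7 libraries. Without the 2 libraries farthest from the median they were 2 (Polrmt and Tfb2m). Lrpprc then had an exact permutation adjusted p of 0.0543 with fewer libraries. By this coefficient without DMM4, Lrpprc, Polrmt and Tfb2m lay above 95.5%, 91.7% and 90.8% of 14507 protein-coding genes. Of 180 coefficients 13 changed sign, and all were computed before it was decided to print none. Of 190 member log2 fold changes under alternatives 171 kept their direction and their side of the threshold, 1 passed it and 18 changed sign, all near 0. By library size alone Tfam was -0.040, Polrmt -0.019, Polg -0.046 and Polg2 -0.065. Over 8 libraries Polg was -0.0048 and Ndufa12 0.0063; Polg2 was -0.0054 without a filter and -0.0036 with the replicate block. Over 7 libraries Mterf3 was 0.069 and Mterf1a 0.010. Leaving out 1 library gave -0.0035 to 0.10 for Tfam, -0.0066 to 0.19 for Polrmt, -0.052 to 0.11 for Polg2, -0.096 to 0.064 for Mterf3 and -0.36 to 0.011 for Mterf1a. The cause was not tested. Depth limits Slirp, with at most 32 counts in a library.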
